A study of Homo sapiens with 6 samples.

Results

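KEAP1, NRF2 and the proteins that work with them form a small sensor and switch for electrophiles and oxidants. The genes described here are the 10 rows of the deposited table whose symbol is KEAP1, CUL3, NFE2L1, NFE2L2, NFE2L3, MAFF, MAFG, MAFK, BACH1 or BACH2, out of 35473 gene rows in all. They were chosen by name and function, with earlier results of these data known. Messenger RNA was sequenced from polyA-selected RNA of IMR32, an established human neuroblastoma cell line. The study had 2 groups, both of the same line plated in 6-well plates. In the CBR-470-1 group, 3 independent biological replicates received the compound at 5 µM over 24 h, and in the DMSO group 3 received the same volume of the solvent for as long. The series' title links the compound to glycolysis and to a modification of protein on the KEAP1-NRF2 route, and the comparison asks here whether the transcripts of that route differed.

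KEAP1 is an adaptor that brings NRF2 to the scaffold CUL3, a cullin that builds a ubiquitin ligase, so that NRF2 is degraded while the cell is unstressed. Electrophiles modify cysteines of KEAP1, NRF2 escapes degradation, and the protein enters the nucleus without any need for more of its own mRNA. NRF2, encoded by NFE2L2, belongs to the CNC family of basic leucine zipper activators with NRF1 (NFE2L1) and NRF3 (NFE2L3). CNC factors bind DNA as pairs with a small MAF protein, MAFF, MAFG or MAFK, which have no activation domain of their own. BACH1 and BACH2 share the CNC zipper, also pair with small MAFs, and repress the same antioxidant response elements.

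CNC-MAF pairs read the core TGACNNNGC, where N is any base, and several target genes carry it close to their start. A search of RefSeq start-site windows (build GRCh38.p14, 250 bases before to 50 bases after each start, both strands) covered 16 windows of 9 members; MAFK was not matched. The core lay in windows of 2 of the 9 genes, 22.2%, against 16.1% of all 27305 genes with a window. Counted by window it lay in 2 of the 16, 12.5%, against 13.3% of all 35116 windows. The 2 genes were KEAP1, whose downstream window held it at 2 places, and MAFF. They are shown because they are the places in the members' windows where the factor's own recognition letters occur, and GCLM, ME1 and TXNRD1, 3 NRF2 targets that rose, are set beside them. Among the 24 NRF2 target genes with a window 7 held the core, 29.2%: PIR and those 3 of the 10 that rose, and PGD, EPHX1 and CBR1 of the 14 that were not called, 21.4%. Each line reads 5′ to 3′ on the strand of the gene, with the match in capitals and 10 bases either side; a match that begins with GC is the core on the opposite strand.
KEAP1, 54 bases before the downstream start, chr19:10502807-10502835, minus strand: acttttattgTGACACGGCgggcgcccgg
KEAP1, 31 bases before the downstream start, chr19:10502784-10502812, minus strand: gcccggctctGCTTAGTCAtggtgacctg
MAFF, 122 bases before the start, chr22:38201862-38201890, plus strand: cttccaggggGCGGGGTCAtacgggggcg
GCLM, 34 bases before the start, chr1:93909446-93909474, minus strand: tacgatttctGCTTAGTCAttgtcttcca
ME1, 137 bases before the start, chr6:83431170-83431198, minus strand: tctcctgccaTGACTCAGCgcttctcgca
TXNRD1, 99 bases before the start, chr12:104215670-104215698, plus strand: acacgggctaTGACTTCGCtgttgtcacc
The second KEAP1 match and the GCLM match had the same 9 letters. Further matches of ME1 and TXNRD1 are not shown. That of ME1 began 11 bases after the start, and those of TXNRD1 8 bases before the start shown and 102 bases before another start. The form TGACTCAGC, the core with TCA in place of its free bases, also contains an AP-1 site. It was in no member's window, in 2 of the 24 NRF2 target genes with a window (ME1 and PIR) and in 0.689% of all genes. The hexamer CACGTG, an E-box read by MYC-type factors, lay in windows of MAFF and MAFG and of 8.77% of all genes. A match of letters is a description and not a measured binding site.

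No member passed the test across the transcriptome. Values were TPM, a length-scaled share of each library's transcripts, and the test was limma on log2(TPM + 1) over the 13470 rows whose mean reached 1 TPM, with Benjamini-Hochberg adjustment and an adjusted p under 0.05 as the threshold. All 10 members reached that minimum and were tested. In limma 0 were called, against 1.97% of all rows tested, 1.13% higher and 0.839% lower. With median centring of the libraries the calls over all rows were 124 higher and 237 lower, against 152 and 113 as deposited, and 0 members were called in either. At an unadjusted limma p under 0.05, 4 members were higher and 0 lower (KEAP1, NFE2L1, MAFG and BACH1), where 13.8% of all rows were higher by that measure. All 10 log2 fold changes were above 0 as deposited, but MAFK was at -0.03 under median centring and -0.04 under quantile normalization. Of all rows 56.9% were above 0 as deposited, and the members' median was 0.13 against 0.03 for all rows. With these bulk samples, fewer cells of a type and less RNA per cell cannot be told apart.

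The intervals give a range for the change of each gene on its own. The 95% limma intervals of the 10 members ran from -0.43 at the lowest lower bound to 0.56 at the highest upper bound, so 0 reached a log2 change of 1, a doubling or a halving of TPM + 1, in either direction. That scale understates changes of low genes. With a pseudocount of 0.1 TPM the interval of MAFK ran from -0.78 to 0.83 and that of BACH2 from -0.38 to 0.81. In the main fit the intervals held 0 for 6 members and lay above it for KEAP1, NFE2L1, MAFG and BACH1. The intervals of MAFG and BACH1 lay above 0 in each of the 16 alternative fits, that of KEAP1 in 12 and that of NFE2L1 in 10. With median centring both of the latter held 0, from -0.02 to 0.26 for KEAP1 and from -0.02 to 0.19 for NFE2L1, and 9.51% of all rows lay above 0. With no variance trend the intervals of both genes also held 0, from -0.01 to 0.33 for KEAP1 and from -0.02 to 0.26 for NFE2L1. With a block for replicate number that of NFE2L1 ran from -0.01 to 0.25. That of KEAP1 also held 0 without DMSO replicate 1 or CBR-470-1 replicate 2, and that of NFE2L1 without DMSO replicate 2 or CBR-470-1 replicate 2 or 3.

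**Figure D1:**
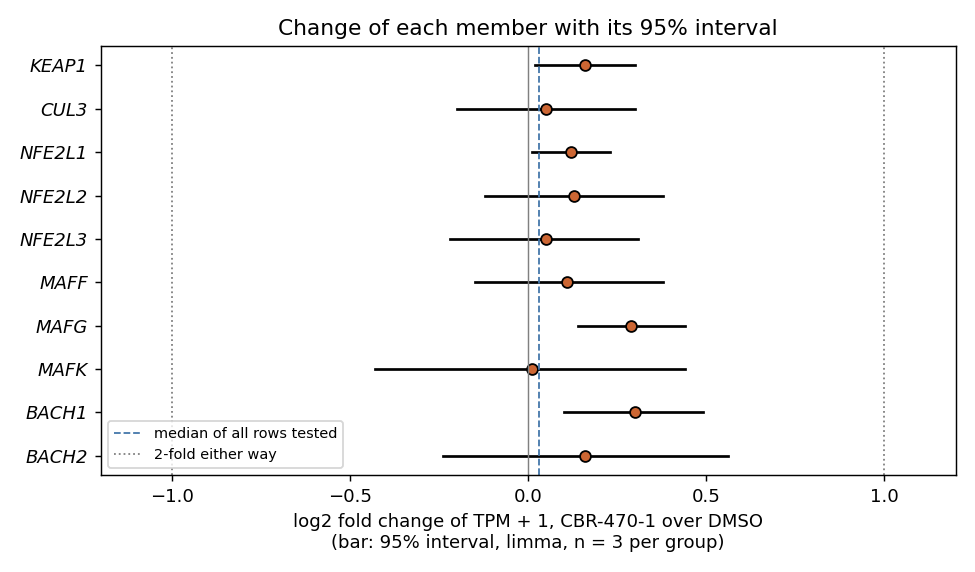
The log2 fold change of TPM + 1, CBR-470-1 over DMSO, on the x axis for each of the 10 genes on the y axis, with points for the limma estimate and bars for its 95% interval (n = 3 per group). All points lie to the right of 0, between 0.01 for MAFK (-0.03 with median centring and -0.04 with quantile normalization) and 0.30 for BACH1, and no bar reaches the dotted lines at 1 or -1.

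The levels spanned more than 2 orders of magnitude. NFE2L1 was the most abundant member at 236 TPM over the 6 libraries, above 95.2% of tested rows or equal to them, and MAFK the least at 1.08 TPM. In DMSO the order was NFE2L1, KEAP1, CUL3, NFE2L2, NFE2L3, BACH1, MAFG, BACH2, MAFF and MAFK. The ranges over the 6 libraries did not overlap between NFE2L1 and KEAP1, CUL3 and NFE2L2, NFE2L2 and NFE2L3, or MAFG and BACH2. Those of KEAP1 and CUL3 overlapped, although KEAP1 was higher in each of the 6 libraries. NFE2L3 and BACH1 could not be ordered, since NFE2L3 was the higher in 2 libraries of 6, and BACH2 was above MAFF in 4 of 6.

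**Figure D2:**
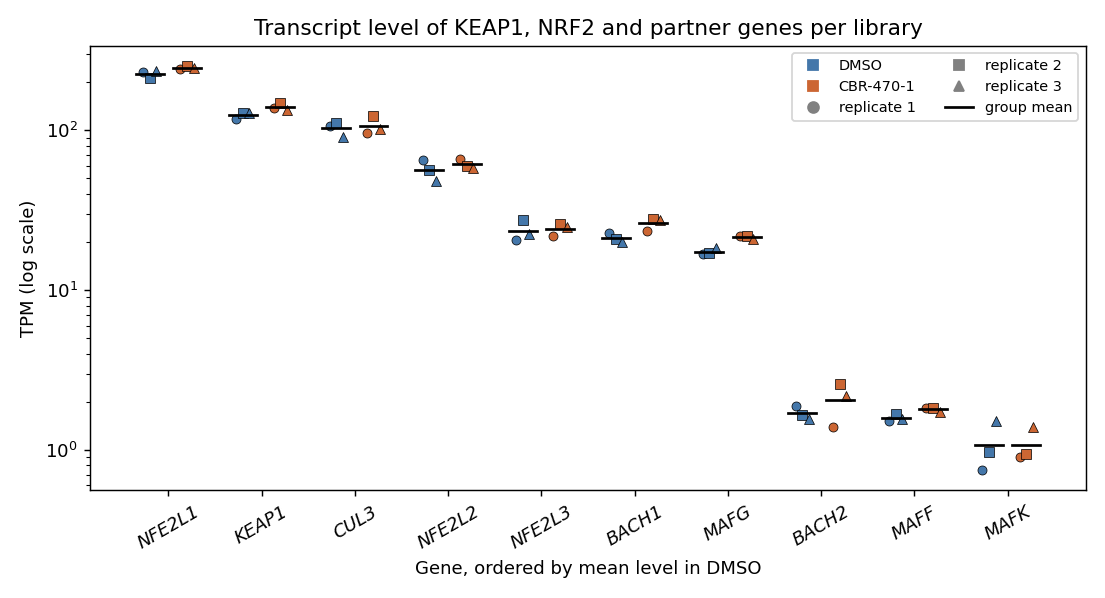
TPM on a log axis for the 10 genes, with a point for each library (shape gives the replicate number) and a line for each group's mean. NFE2L1 stands highest at 227 TPM in DMSO, and BACH2, MAFF and MAFK form a separate low tier between 0.745 and 2.58 TPM.

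KEAP1, the sensor, stood at 117, 128 and 129 TPM in DMSO replicates 1 to 3 and at 137, 149 and 133 TPM in the CBR-470-1 replicates. Every CBR-470-1 library was above every DMSO library. Such a separation upwards was seen in 5 members, KEAP1, NFE2L1, MAFF, MAFG and BACH1, and in 17.7% of all rows tested. The means of KEAP1 were 125 ± 6.65 and 140 ± 7.96 TPM (SD, n = 3 each), a ratio of 1.12. The limma log2 fold change was 0.16 (SE 0.0592, adjusted p = 0.161), with a 95% interval of 1.02 to 1.23 as a fold of TPM + 1. The gene (ENSG00000079999.13) lies on the minus strand of chromosome 19 at 10486120 to 10503741, in GRCh38 with GENCODE 29 models, which list 10 transcripts of it. The values are sums over a gene's transcripts, so they do not tell the start with the core motif from the other start.

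CUL3, the scaffold of the ligase, stood at 106, 111 and 91.3 TPM in the DMSO libraries and at 95.8, 123 and 102 TPM with CBR-470-1. The groups overlapped. Its limma log2 fold change was 0.05 (SE 0.107, adjusted p = 0.798), with an interval of 0.871 to 1.23 as a fold. The number of KEAP1 transcripts per CUL3 transcript, a ratio of TPM within a library, was 1.22 ± 0.166 in DMSO and 1.31 ± 0.112 in CBR-470-1, with overlapping groups.

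NFE2L2, the gene of NRF2 itself, had 64.8, 56.2 and 48.0 TPM in the DMSO libraries and 66.3, 59.3 and 58.4 TPM with CBR-470-1. The groups overlapped, and the lowest value was that of DMSO replicate 3. The limma log2 fold change was 0.13 (SE 0.108, adjusted p = 0.504), with an interval of 0.918 to 1.30 as a fold. Without DMSO replicate 3 the log2 fold change was 0.02, and without DMSO replicate 1 it was 0.23, neither called, although the interval of the latter lay above 0. The gene (ENSG00000116044.15) lies on chromosome 2 at 177227595 to 177392697 on the minus strand. It shares 1054 of its 5979 exonic bases with AC019080.1 on the same strand, and how the counting split reads between them is not known here. KEAP1 exceeded it in each library, by 2.26 ± 0.441 times in DMSO and 2.28 ± 0.219 times in CBR-470-1. Set against it, NQO1, the textbook NRF2 target that reduces quinones, had 0.0577, 0.0878 and 0.111 TPM per TPM of NFE2L2 in DMSO and 0.926, 1.12 and 1.21 in CBR-470-1.

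NFE2L1 encodes NRF1, an ER-anchored activator known for restoring proteasome gene expression. It had 232, 213 and 234 TPM in the DMSO libraries and 241, 252 and 246 TPM with CBR-470-1, groups that did not overlap. The limma log2 fold change was 0.12 (SE 0.0463, the smallest among the members, adjusted p = 0.173), with an interval of 1.01 to 1.17 as a fold. NFE2L3, which encodes the least studied CNC activator, had 20.6, 27.4 and 22.4 TPM in the DMSO libraries and 21.9, 26.0 and 24.6 TPM with CBR-470-1, with every CBR-470-1 value inside the DMSO range. Its limma log2 fold change was 0.05 (SE 0.113, adjusted p = 0.828). NFE2L1 supplied 73.9% ± 2.61 of the summed TPM of the CNC activators in DMSO and 74.2% ± 0.889 in CBR-470-1, and NFE2L2 supplied 18.4% ± 2.37 and 18.5% ± 1.43.

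MAFG, the main small MAF of these cells, was the member closest to a call. It had 16.8, 17.0 and 18.4 TPM in the DMSO libraries and 21.9, 21.8 and 20.7 TPM with CBR-470-1. The groups did not overlap, and the spread within each was small. The means were 17.4 ± 0.859 and 21.5 ± 0.644 TPM, a ratio of 1.24, and the limma log2 fold change was 0.29 (SE 0.0629, adjusted p = 0.0645), with an interval of 1.11 to 1.36 as a fold. It was the only member to pass under any alternative, with a correction for GC content and transcript length (0.34, SE 0.0478, limma adjusted p = 0.0295, where 1.14% of all rows were called higher). The gene (ENSG00000197063.10) lies on chromosome 17 at 81918270 to 81927714, minus strand, and shares 105 of 5220 exonic bases with SIRT7 on the same strand and 224 with an antisense gene.

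MAFF and MAFK, the other small MAFs, were near the minimum for testing. MAFF had 1.52, 1.68 and 1.55 TPM in the DMSO libraries and 1.83, 1.82 and 1.73 TPM with CBR-470-1, groups that did not overlap. Its limma log2 fold change was 0.11 (SE 0.114, adjusted p = 0.575). MAFK had 0.745, 0.970 and 1.52 TPM in the DMSO libraries and 0.907, 0.938 and 1.38 TPM with CBR-470-1, and the groups overlapped almost fully. Its limma log2 fold change was 0.01 (SE 0.186, the largest among the members, adjusted p = 0.984), and 809 of its 4458 exonic bases are shared with TMEM184A on the opposite strand.

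Summed over MAFF, MAFG and MAFK, the small MAF level was 19.0, 19.6 and 21.4 TPM in the DMSO libraries and 24.7, 24.5 and 23.9 TPM with CBR-470-1. MAFG made up 86.8% ± 1.24 of that sum in DMSO and 88.2% ± 1.08 in CBR-470-1, so the sum mostly restates MAFG. The CNC activators summed to 306 ± 10.5 and 332 ± 4.69 TPM. Per TPM of small MAF there were 16.7, 15.1 and 14.2 TPM of CNC activator in the DMSO libraries and 13.4, 13.7 and 13.8 in the CBR-470-1 libraries, groups that did not overlap. For NFE2L2 alone the values were 3.41, 2.86 and 2.24 in DMSO and 2.69, 2.42 and 2.45 in CBR-470-1, with overlapping groups. A ratio within a library does not depend on how the library is scaled, and no test was made of these sums and ratios.

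BACH1 encodes the haem-sensitive repressor of antioxidant response elements, and its log2 fold change of 0.30 was close to that of MAFG, which was the larger in 5 of the 16 alternative fits. It had 22.7, 20.9 and 19.9 TPM in the DMSO libraries and 23.4, 28.0 and 27.3 TPM with CBR-470-1. The groups did not overlap, but CBR-470-1 replicate 1 lay close to the highest DMSO library. The means were 21.2 ± 1.38 and 26.2 ± 2.44 TPM, and limma gave an SE of 0.0848 (adjusted p = 0.104), with an interval of 1.07 to 1.41 as a fold. The gene (ENSG00000156273.15) lies on chromosome 21 at 29194071 to 29630751, plus strand. BACH2, best known as a repressor in lymphocytes, had 1.87, 1.66 and 1.55 TPM in the DMSO libraries and 1.39, 2.58 and 2.16 TPM with CBR-470-1. Both the lowest and the highest of these 6 values were in the CBR-470-1 group, and the limma log2 fold change was 0.16 (SE 0.171, adjusted p = 0.612). It was 0.32 without CBR-470-1 replicate 1 and 0.03 without CBR-470-1 replicate 2, called in neither. The CNC activators summed to 13.0, 13.2 and 14.2 times the BACH level in DMSO and to 13.3, 11.0 and 11.2 times in CBR-470-1, with overlapping groups.

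**Figure D3:**
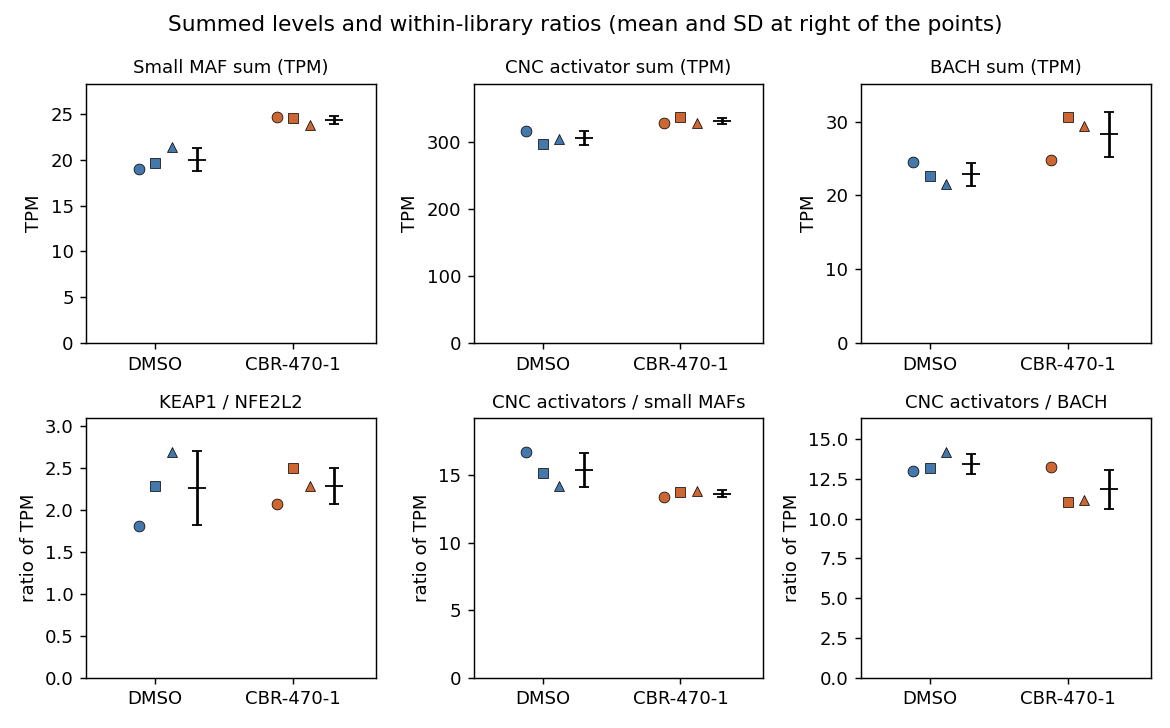
Summed TPM of the small MAFs, the CNC activators and the BACH genes (top, y axes in TPM) and ratios of TPM within a library (bottom), with a point for each library and the mean and SD of each group (n = 3) beside them. The small MAF sum averages 20.0 TPM for DMSO against 24.4 TPM with CBR-470-1, without overlap, while KEAP1 per NFE2L2 is 2.26 and 2.28 with full overlap.

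The other genes of the pathway were taken from 8 lists by role. Over all rows tested 1.13% were called higher and 0.839% lower, with a median log2 fold change of 0.03. Of 8 components that a CUL3 ligase runs on, 0 were called in limma (median log2 fold change 0.10), and 2 had an unadjusted p under 0.05, as did 23.5% of all rows in either direction. The largest log2 fold change, 0.16, was that of UBA3 and of DCUN1D1 alike; UBA3, a subunit of the enzyme that activates NEDD8, was at 53.7 ± 0.701 and 60.0 ± 1.98 TPM (limma adjusted p = 0.114). Of 6 proteins described as binding KEAP1, 1 rose and 0 fell (median 0.05). This was SQSTM1, the autophagy receptor p62, which competes with NRF2 for KEAP1 and is itself an NRF2 target, from 40.5 ± 2.69 to 65.3 ± 2.76 TPM (limma log2 fold change 0.68, adjusted p = 0.00701). The kinase gene IKBKB had -0.43 (limma adjusted p = 0.0593), named after its values were seen.

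Of 12 genes for KEAP1-independent turnover of NRF2 and for turnover of BACH1, 1 rose and 0 fell (median 0.06). It was SKP1, the adaptor of SCF ligases, from 453 ± 19.8 to 540 ± 18.6 TPM (limma log2 fold change 0.26, adjusted p = 0.0408). Of the listed F-box adaptors for BACH1, FBXO22 had 124 ± 7.20 and 142 ± 5.11 TPM (limma adjusted p = 0.104). FBXL17 had 7.15 ± 1.98 and 6.77 ± 0.979 TPM (limma adjusted p = 0.904), and neither was called. Of 9 genes of NRF1 processing, 2 rose and 0 fell (median 0.21). Beside both lists, 1.13% of all rows tested were called higher, and the median of all rows was 0.03. VCP, the ATPase that pulls NRF1 out of the ER membrane, rose from 201 ± 3.52 to 238 ± 4.32 TPM (limma adjusted p = 0.0267), and FBXW7, a ligase adaptor, from 18.0 ± 0.877 to 23.2 ± 1.10 TPM (limma adjusted p = 0.0494). SKP1, VCP and FBXW7 each lost the call whichever of the 6 libraries was left out. The protease gene DDI2, whose product cleaves NRF1, had 4.74 ± 0.661 and 4.95 ± 0.405 TPM (limma adjusted p = 0.795).

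Of 9 coactivators and corepressors, 1 rose and 0 fell (median 0.05), where 1.13% of all rows tested were called higher and 0.839% lower (median 0.03). The gene that rose was EP300, an acetyltransferase that NRF2 recruits, from 37.0 ± 2.14 to 46.3 ± 1.13 TPM (limma adjusted p = 0.0465). It lost the call whichever of the 6 libraries was left out. Of 12 other basic leucine zipper genes, 6 were abundant enough to test, and 0 rose and 1 fell (median -0.02). JUND, an AP-1 subunit, went down from 79.6 ± 1.25 TPM to 60.3 ± 2.80 TPM (limma estimate -0.40 on the log2 scale, adjusted p = 0.0175), but with the GC and length correction its adjusted p was 0.0773. NFE2, the blood-cell CNC factor, and the large MAF genes MAF and MAFA had means under 0.04 TPM.

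The readout genes of the activators were counted in the same fit. Of 33 listed NRF2 target genes 27 could be tested, of which 13 rose and 0 fell, with a median log2 fold change of 0.54. The steepest were NQO1, from 4.66 ± 0.817 to 66.2 ± 4.59 TPM, and the aldo-keto reductase gene AKR1C3, from 0.351 ± 0.138 to 6.89 ± 1.17 TPM. AKR1C3, HMOX1, AKR1C2 and BLVRB had DMSO means under 1 TPM and reached the minimum for testing only through the CBR-470-1 group. Listed targets under 1 TPM in both groups were left out, so the count and the median can lean upwards. The ferritin chains FTL and FTH1, which store iron, went from 631 ± 21.4 to 1417 ± 27.1 TPM and from 894 ± 18.4 to 1231 ± 26.9 TPM. AKR1C3 and the ferritin genes have near-identical copies, and how the counting split reads among them is not known here. In the thioredoxin system, TXNRD1 rose from 188 ± 7.21 to 293 ± 13.5 TPM, PRDX1 from 567 ± 21.9 to 825 ± 21.1 TPM and TXN from 322 ± 8.22 to 412 ± 14.7 TPM. Malic enzyme ME1, an NADPH producer, rose from 7.35 ± 0.489 to 17.8 ± 0.435 TPM, the pentose phosphate enzyme TKT from 273 ± 12.2 to 398 ± 9.17 TPM, and PIR, which encodes pirin, from 30.9 ± 1.85 to 62.3 ± 4.01 TPM. HMOX1, which breaks down haem and is the classical BACH1-repressed gene, rose from 0.882 ± 0.361 to 3.54 ± 0.863 TPM. When 1 library was left out, HMOX1 kept its limma call only without DMSO replicate 1 (adjusted p 0.049 to 0.108). HMOX1 also lost the call with no filter on low rows, with no variance trend and with the replicate block. TXN lost its call without DMSO replicate 2 or without CBR-470-1 replicate 2 or 3 (limma adjusted p up to 0.0786). Of 31 proteasome subunit genes, which NRF1 drives, 4 rose and 0 fell (PSMC2, PSMD1, PSMD4 and PSMD12), with a median of 0.12 and 28 values above 0. Over all rows tested 1.13% were called higher and 56.9% lay above 0, with a median of 0.03. Whether NRF1 had a part in these values was not tested. GCLM, which carries the same 9 motif letters as KEAP1, rose from 25.3 ± 2.64 to 43.6 ± 1.40 TPM (limma log2 fold change 0.77, adjusted p = 0.0105). Leaving out any CBR-470-1 replicate ended the call of GCLM, with limma adjusted p up to 0.0656. Outside the NRF2 targets, 9 list genes were called, and 7 of them (SKP1, VCP, FBXW7, EP300, PSMC2, PSMD1 and PSMD4) lost the call whichever of the 6 libraries was left out, with limma adjusted p from 0.0597 to 0.155. With the GC and length correction FBXW7 and PSMC2 also lost it (limma adjusted p = 0.0664 and 0.121). Median centring of the libraries ended the calls of EP300, FBXW7, PSMC2 and PSMD4. JUND kept it only without CBR-470-1 replicate 1 and PSMD12 only without DMSO replicate 1 or 3.

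**Figure D4:**
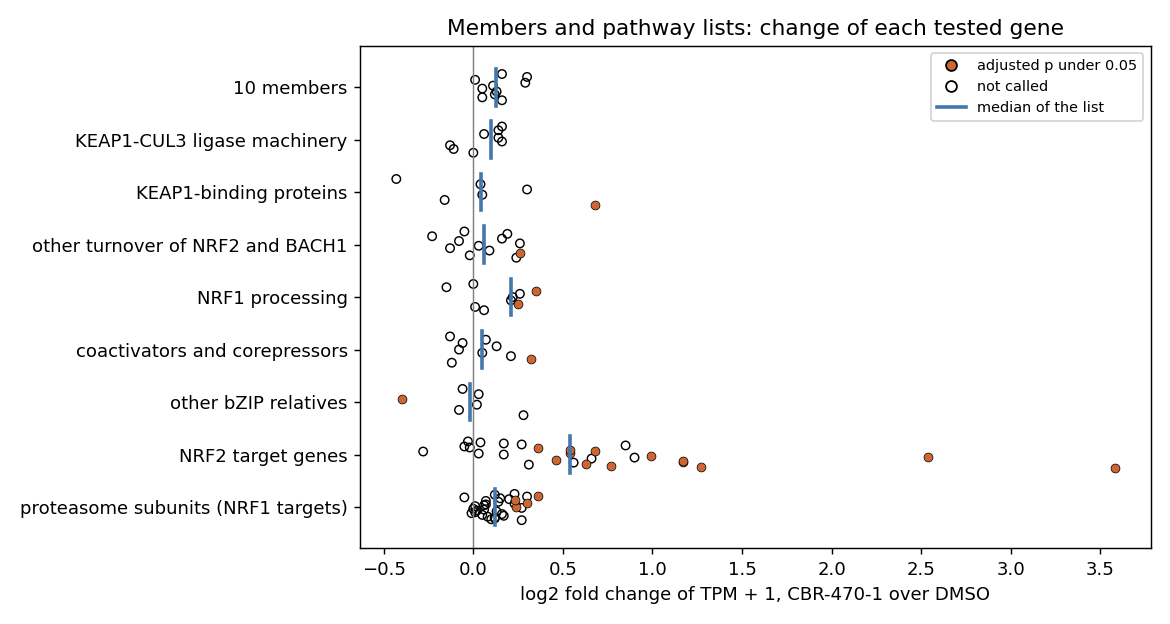
The log2 fold change of TPM + 1, CBR-470-1 over DMSO, on the x axis for each tested gene of the 10 members and of the 8 pathway lists on the y axis, with filled points for genes with an adjusted p under 0.05 and a bar for each list's median. The members lie between 0.01 and 0.30 with none filled, while the NRF2 target genes reach 3.58.

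By the distance between log2(TPM + 1) values centred on each gene's mean over the 6 libraries, the genes most like KEAP1 among 8798 whose mean reached 10 TPM were NOM1, ELMSAN1 and ZNF330, at 0.05, 0.05 and 0.06. The median distance of a gene from KEAP1 was 0.33. The genes most like NFE2L2 were THAP3, C3orf58 and ATP2C1, at 0.08, 0.09 and 0.11, against a median of 0.42. THAP3, for example, had 11.6, 10.5 and 8.92 TPM in the DMSO libraries and 12.1, 10.6 and 10.4 TPM with CBR-470-1, again lowest in DMSO replicate 3. These are descriptions over 6 libraries and say nothing of shared control.

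All 10 markers of adrenergic neuroblastoma had a mean above 1 TPM, with MYCN, the amplified oncogene of this line, at 1173 ± 55.0 TPM in DMSO. Of the 7 mesenchymal markers 5 passed that level too. The 10 adrenergic markers summed to 2964 to 3241 TPM in the DMSO libraries and 2860 to 2911 TPM in the CBR-470-1 libraries. Of the adrenergic markers, DBH and CHGA were called lower in limma (adjusted p = 0.0247 and 0.0468), and the part of this in the members' values was not tested. The 7 mesenchymal markers summed to 39.0 to 43.4 and 38.9 to 43.9 TPM and the 4 Schwann markers to 2.59 to 2.84 and 2.40 to 3.98 TPM. The 4 epithelial markers stayed at or under 1.41 TPM in sum, and of the 4 blood markers, which summed to at most 0.203 TPM, HBB and CD3E were listed at 0 in each library. Columns summed to 972453 to 973696 TPM, and TPM keeps no record of depth, so the sequencing depth behind these values is unknown.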

How the data were processed

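Gene-level TPM values were deposited by the authors for 6 libraries, 3 DMSO and 3 CBR-470-1. The submitters' processing notes name bcl2fastq, Salmon 0.7.2 and the build GRCh38, while the annotation, the options and the use of strand are not stated there. TPM is relative within a library, so genes that go up push the others down. The deposited TPM holds no counts: no counting interval can be given, and precision rests on the 3 replicates per group.

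The test was limma 3.58.1 (R 4.3.3) on log2(TPM + 1), two-sided, with treatment as its one factor and a variance trend, and Benjamini-Hochberg adjustment over the 13470 rows whose mean reached 1 TPM. Fold changes are on that scale, which understates changes of low genes; means, SDs and ratios use linear TPM. An exact permutation test of 3 against 3 cannot go below 0.1 and was not used. The script was tested on simulated data with planted changes larger than those of the members. That test does not show whether changes of the members' size would be called. The members and lists were chosen with earlier results of these data known. All members are named, and from each list the genes called or, where none was, the one with the largest change. Named outside that rule were IKBKB, FBXO22, FBXL17, DDI2, NFE2, MAF, PGD, EPHX1, CBR1, AKR1C2, BLVRB, TALDO1, MAFA, DBH, CHGA and MYCN. Alternatives were pseudocounts of 0.1 and 5 TPM, other filters, scalings and variance models, a block for replicate number, the omission of each library in turn, and a spline correction (5 degrees of freedom) for GC content and length of GENCODE 29 transcripts, available for 13452 rows.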

Additional observations from a re-analysis of the deposited data

How the results depend on the processing

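Members called higher stayed at 0 under every alternative except the GC and length correction, where it was 1 (MAFG; with that correction plus the replicate block its limma adjusted p was 0.132), and members called lower stayed at 0 throughout. Genes called over all rows, 265 as deposited, numbered 82 without a filter on low rows, 428 where the mean had to reach 5 TPM, 83 with no variance trend, 17 with the replicate block and 11 with the GC and length correction with the replicate block. They numbered 18 to 82 with 1 library left out. Called genes of the pathway lists, 22 as deposited, numbered 11, 9 and 7 with no variance trend, the block, and the correction with the block, and 10 to 15 with 1 library left out. Fits with fewer samples or more terms have less power, and the cause of the other shifts was not tested. Direction changed for uncalled members: CUL3 was at -0.04 with the GC and length correction, with and without the block, and -0.05 to 0.13 with 1 library left out. MAFK was at -0.03 with median centring, -0.04 with quantile normalization and -0.11 to 0.07 with 1 library left out, and NFE2L3 at -0.04 to 0.16. The 5 TPM minimum left 7 members, without MAFF, MAFK and BACH2, and MAFK could not be tested without DMSO replicate 3. Over all rows tested, same-numbered libraries did not deviate together (correlations -0.138, -0.00591 and -0.0318), and libraries did not all correlate best with their own number. With 3 libraries per group these correlations cannot exclude that the numbers pair the samples. The replicate block lowered the SE of KEAP1, CUL3, NFE2L2 (0.108 to 0.07), NFE2L3 and MAFK. It raised that of the other members, as for MAFG (0.0629 to 0.0776). Depth is unknown.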
